A study of Mus musculus with 24 samples.

Results

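The 10 genes described here code for transcription factors that set stem, myeloid and lymphoid fate in blood: Runx1, Gata2, Erg and Myb of stem and progenitor cells, Spi1, Cebpa, Cebpe, Gfi1 and Irf8 of the granulocyte and monocyte branch, and Ikzf1 of the lymphoid branch. They were chosen by name from a table of read counts with 55487 distinct gene identifiers. All 10 passed the filter on low counts that left 23059 genes for testing, and the lowest count of any of them in any library was 34, for Cebpe. The libraries were made from mouse cells labelled LSK, a surface phenotype of blood stem and multipotent progenitor cells, while the design text names the sorted cells as lineage-negative and KIT-positive progenitors. The study used a Tet-off mouse model, in which a human MLL::ENL fusion transgene (ME), a leukemia oncogene, is silent until its induction. The cell type that drives the transgene is not given in the sources used here.

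Each of the 6 groups held 4 libraries, which the design text calls biological replicates. Newborn liver at postnatal day 0 (P0) gave wild-type cells (P0 WT) and cells in which ME had been switched on before birth, at E10.5 (P0 ME). Bone marrow at day 28 (P28) gave wild-type cells (P28 WT), cells with ME induced at E10.5, cells with ME induced at P0, and a last set, also induced at E10.5, whose label reads RLT Vav Txp and is not spelled out. The title of the series concerns protection against MLL::ENL that is gained in fetal life, and the groups set fetal against neonatal induction and the newborn against day 28. Every P0 library came from liver and every P28 library from marrow, so an effect of age cannot be told apart from one of tissue. The RLT Vav Txp titles carry sample names in place of replicate numbers, so that group's library numbers follow the order of its samples. Some of these names share their digits, and the labels do not say whether those libraries share a source.

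These factors work as a network. RUNX1, GATA2 and ERG belong to a set of 7 proteins, with FLI1, TAL1, LYL1 and LMO2, that bind together at enhancers of blood stem cells, and MYB keeps progenitors dividing. PU.1, the product of Spi1, and C/EBP alpha open the myeloid program, GFI1 and C/EBP epsilon take it towards granulocytes, and IRF8 takes it towards monocytes and dendritic cells. Ikaros, the product of Ikzf1, prepares multipotent progenitors for the lymphoid fate. In leukemia with an MLL fusion, the fusion protein sits on and activates stem cell transcription factor genes, and MYB is known to be needed by the leukemic cells.

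Library totals ran from 31233688 to 89774511 counts, and levels below are CPM, counts scaled to the TMM-adjusted library total, where 1 CPM stood for 31.2 reads in the smallest library. Changes are log2 fold changes from edgeR's quasi-likelihood test, in which 1 stands for a 2-fold higher level. Genes count as called where the Benjamini-Hochberg adjusted p over all 23059 genes was under 0.05. In P0 WT and in P0 ME the library numbered 1 stood apart from the other 3. The summed level of 10 neutrophil genes was 758 and 722 CPM in those libraries and 10837 to 37691 CPM in the other 6, and 9 erythroid genes summed to 665 and 284 CPM against 5438 to 17883 CPM. At P28 the neutrophil sum was 493 to 1602 CPM outside the RLT Vav Txp group and 1829.8 to 6093 CPM inside it, and the macrophage sum was 47.0 to 111 CPM against 740.1 to 3242 CPM. A set of 10 genes of stem and multipotent progenitors, Kit and Ly6a among them, summed to 2357 to 3515 CPM in P0 libraries 2 to 4 and 2252 to 3244 CPM in the RLT Vav Txp group. In the P0 libraries numbered 1 that sum was 5032 and 5189 CPM, and in the other P28 libraries 4641 to 5522 CPM. It thus differed within the P0 groups and between the P28 groups, and did not split by age. These are bulk libraries, in which fewer cells of a type and less RNA per cell cannot be told apart.

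Counted per kilobase of merged exons, so that genes of unequal length can be compared, Spi1 had the highest median level over the 24 libraries, at 84.3 CPM per kb. Gata2 (38.7), Ikzf1 (37.1), Myb (29.0) and Gfi1 (28.2 CPM per kb) came next, followed by Erg (13.4), Runx1 (8.25), Irf8 (7.31) and Cebpa (6.18 CPM per kb). Cebpe was the lowest at 2.65 CPM per kb and the most variable, with a 120-fold range of CPM between its lowest and highest library. Irf8 spanned an 8.60-fold range, Erg 7.04-fold, Gfi1 5.51-fold and Cebpa 4.46-fold. The other 5 stayed within 2.43- to 3.28-fold over all 24 libraries.

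**Figure D1:**
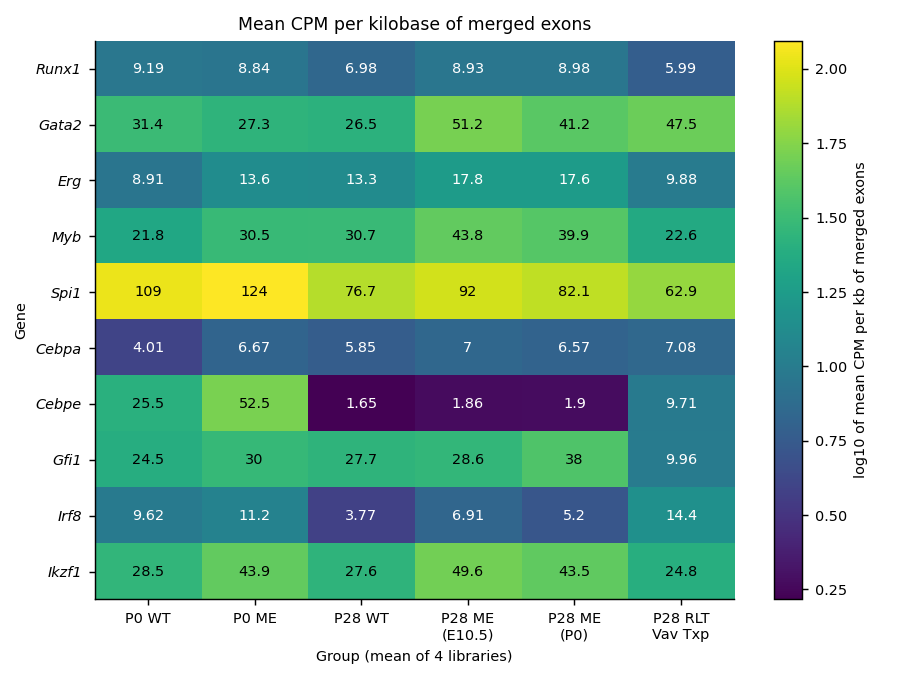
Mean level of each gene in each group, in CPM per kilobase of merged exons (printed in the cell, mean of 4 libraries, with the colour on a log10 scale). Spi1 led in every group, and Cebpe ran from 1.65 CPM per kb in P28 WT to 52.5 in P0 ME.

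With ME induced at E10.5, Gata2, Ikzf1 and Irf8 were higher than in wild-type marrow at P28. These 3 of the 10 genes were called, against 12.3% of all genes tested, and all 3 were higher, as were 7.82% of all genes. The fitted changes of all 10 genes were positive with TMM scaling, with a median of 0.39 against -0.10 over all genes, and Gfi1 turned to -0.03 with DESeq2's size factors and to -0.08 with plain library totals. The groups did not overlap for 4 genes (the 3 called ones and Myb), against 28.2% of all genes. Over all genes 63.8% of the calls were higher with TMM scaling, 52.2% with size factors and 33.3% with plain totals.

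Gata2 (ENSMUSG00000015053, chr6:88193891-88207032, plus strand) codes for the GATA factor of stem cells and of mast cell and megakaryocyte progenitors. It measured 121, 134, 159 and 157 CPM in the P28 WT libraries and 295, 236, 308 and 266 CPM in those with ME induced at E10.5. Every ME library was above every wild-type library, with a log2 fold change of 0.95 (SE of 0.23, adjusted p = 0.00934 by edgeR). The summed level of 10 mast cell and basophil genes was lower in ME, at 619.6 to 693 CPM against 927 to 1177 CPM in WT. The part of such cells in the Gata2 level was not tested. Leaving out WT library 1 or 2 took the adjusted p of Gata2 to as much as 0.0501.

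Ikzf1 (ENSMUSG00000018654, chr11:11685003-11772926, plus strand), the Ikaros gene, measured 169, 152, 149 and 166 CPM in P28 WT and 259, 311, 300.4 and 276 CPM with ME induced at E10.5. All 4 ME libraries exceeded all 4 wild-type libraries, and the log2 fold change was 0.85 (SE of 0.17, adjusted p = 0.00427 by edgeR). It was called under each of the 16 alternative settings, with changes from 0.72 to 0.92.

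Irf8 (ENSMUSG00000041515, chr8:120736358-120756694, plus strand), the factor of monocyte and dendritic cell progenitors, measured 30.5, 17.7, 29.1 and 29.1 CPM in P28 WT and 46.9, 40.0, 66.4 and 41.5 CPM with ME induced at E10.5. The groups did not overlap, but WT library 2 lay far below the other 3. The log2 fold change was 0.87 (SE of 0.28, adjusted p = 0.0435 by edgeR), and the adjusted p rose above 0.05 in each of the 8 fits that left out 1 library, to as much as 0.198, and with DESeq2's size factors, plain library totals or no filter on low counts. The 10 macrophage genes summed to 76.7 to 111 CPM in WT and 48.5 to 75.9 CPM in ME, with Adgre1 at 0.989 to 1.46 CPM in ME. The part of other cell types in the Irf8 level was not tested.

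The other 7 genes were not called in this comparison. Myb (ENSMUSG00000019982, chr10:21124935-21160984, minus strand) measured 258, 248, 261 and 331 CPM in WT and 389, 353, 410.1 and 414 CPM in ME, with no overlap between the groups and a log2 fold change of 0.51 (SE of 0.19, adjusted p = 0.0704 by edgeR). WT library 4 was the highest of its group and still lay below the lowest ME library. Runx1 (ENSMUSG00000022952, chr16:92601466-92826149, minus strand) ran from 75.5 to 103 CPM in WT and 97.3 to 129 CPM in ME (log2 fold change 0.35), and WT library 4 was the only wild-type library inside the ME range. Erg (ENSMUSG00000040732, chr16:95359169-95586593, minus strand) ran from 38.4 to 51.8 CPM and 45.9 to 92.0 CPM, with 1 ME library far above the rest and a log2 fold change of 0.42. Spi1, Cebpa, Cebpe and Gfi1 had overlapping groups and log2 fold changes of 0.26, 0.26, 0.17 and 0.05. The summed neutrophil genes were 493 to 747 CPM in WT and 861 to 1602 CPM in ME, and their part in the level of these granulocyte factors was not tested.

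**Figure D2:**
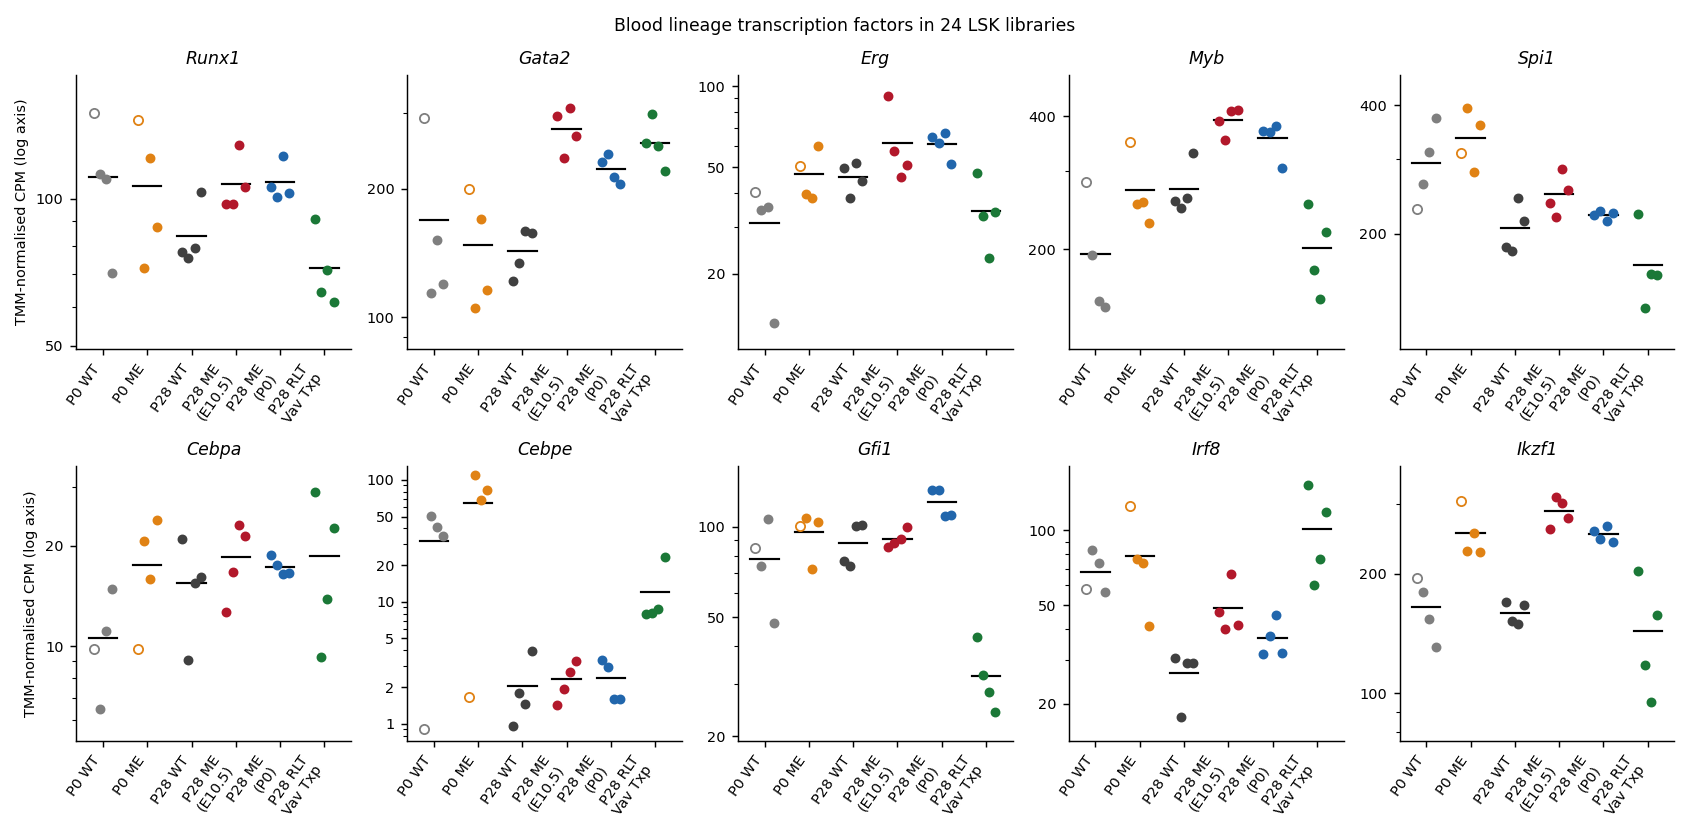
TMM-normalised CPM of the 10 genes (log axis) in each of the 24 libraries, by group, with the group mean as a bar and the P0 libraries numbered 1 as open circles. For Gata2, Ikzf1, Irf8 and Myb the 4 P28 libraries with ME induced at E10.5 all lie above the 4 P28 WT libraries, and for Cebpe the open circles lie far below the filled P0 circles.

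The promoters of the 3 called genes are shown because these genes were higher together. Each is the 250 bases before a transcription start in RefSeq (build GRCm38.p6), and the 5 windows given are those of these genes that hold no base of a GENCODE exon. RefSeq windows were found for 8 of the 10 genes, not for Spi1 and Cebpe. Capitals mark a match, on either strand, to 1 of 9 short motifs: AGATAA for GATA factors, GAGGAA for PU.1-type and CAGGAA for ERG- or FLI1-type ETS factors, TGTGGT for RUNX, TTGCNNAA for C/EBP, 2 copies of GAAA set 2 bases apart for IRF, AACGG for MYB, AAATCA for GFI1 and TGGGAA for Ikaros.
Gata2, window 1, chr6:88193641-88193890, plus strand: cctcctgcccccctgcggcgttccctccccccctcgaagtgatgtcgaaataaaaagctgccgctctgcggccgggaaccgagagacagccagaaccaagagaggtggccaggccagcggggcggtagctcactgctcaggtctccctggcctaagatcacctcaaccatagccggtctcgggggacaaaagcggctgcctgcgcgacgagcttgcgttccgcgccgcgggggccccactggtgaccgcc
Ikzf1, window 1, chr11:11685675-11685924, plus strand: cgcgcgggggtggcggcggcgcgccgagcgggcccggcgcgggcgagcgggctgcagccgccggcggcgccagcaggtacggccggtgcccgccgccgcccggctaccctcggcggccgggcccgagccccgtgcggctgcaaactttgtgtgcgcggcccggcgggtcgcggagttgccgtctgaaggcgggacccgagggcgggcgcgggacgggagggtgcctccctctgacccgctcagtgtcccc
Ikzf1, window 2, chr11:11689927-11690176, plus strand: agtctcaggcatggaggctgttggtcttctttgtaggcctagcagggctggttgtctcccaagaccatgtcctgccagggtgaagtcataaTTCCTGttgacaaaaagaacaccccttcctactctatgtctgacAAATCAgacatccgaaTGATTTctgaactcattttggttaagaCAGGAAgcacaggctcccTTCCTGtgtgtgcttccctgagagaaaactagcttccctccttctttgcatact
Irf8, window 1, chr8:120736108-120736357, plus strand: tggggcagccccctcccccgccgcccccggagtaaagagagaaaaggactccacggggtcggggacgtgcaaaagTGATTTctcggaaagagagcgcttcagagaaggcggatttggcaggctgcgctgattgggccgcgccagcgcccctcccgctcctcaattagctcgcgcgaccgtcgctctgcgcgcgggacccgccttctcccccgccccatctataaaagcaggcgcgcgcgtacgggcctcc
Irf8, window 2, chr8:120738389-120738638, plus strand: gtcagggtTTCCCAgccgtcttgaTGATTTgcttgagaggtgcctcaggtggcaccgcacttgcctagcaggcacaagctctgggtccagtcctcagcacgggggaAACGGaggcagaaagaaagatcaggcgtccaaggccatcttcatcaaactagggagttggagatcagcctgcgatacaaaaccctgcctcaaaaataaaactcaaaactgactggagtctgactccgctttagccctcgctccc

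The Gata2 window and the upstream Ikzf1 window held none of the 9 motifs. The other Ikzf1 window held 3 matches to the ERG- or FLI1-type motif, which occurs in 25.7% of 32851 RefSeq promoters of this length, and 2 to the GFI1 motif, which occurs in 12.4%. The upstream Irf8 window held 1 match to the GFI1 motif, and the other Irf8 window held 1 each to the GFI1, MYB (14.5% of promoters) and Ikaros (21.6%) motifs. None of the 5 windows held the motif of GATA factors (9.99% of promoters), RUNX (14.0%), C/EBP (9.56%), IRF (2.98%) or PU.1 (23.3%). A match is a run of letters and no measure of binding.

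Other factors of the same network were counted from fixed lists. Beside these counts, 12.3% of all genes were called in this comparison, and 7.82% were called higher. Of 10 stem cell factors that work with these genes, 3 rose with ME induced at E10.5 and none fell: Mecom (log2 fold change 1.51), the EVI1 gene of stem cells, Gfi1b (1.24), the sister gene of Gfi1 in megakaryocyte and red cell progenitors, and Etv6 (0.86), an ETS repressor. Of 14 lymphoid factors, Spib (3.58), Tcf3 (0.98), the E2A gene, and Tcf12 (0.49) rose, while Gata3 (-2.29), a T-cell factor, fell. The Spib level was near the floor, with means of 0.0873 CPM in WT and 1.06 CPM in ME. Of 10 myeloid factors only Maf fell (-1.78) and none rose, and of 8 erythroid and megakaryocyte factors Gata1 (1.77) and Gfi1b rose. None of 15 genes that the granulocyte and monocyte factors are known to activate, such as Mpo, Elane and Csf1r, was called by edgeR (1 at an unadjusted p under 0.05), and their median change was 0.17 against -0.10 over all genes. Of 10 lymphoid target genes only Igll1 (-2.69) was called.

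With ME induced at P0, none of the 10 genes was called against wild-type marrow at P28, where 1.57% of all genes were called. At an unadjusted p under 0.05 the edgeR test passed 3 of the 10 (Ikzf1, Gata2 and Gfi1) and 4648 of all genes. All 10 fitted changes were positive, under TMM scaling, size factors and plain totals alike, with a median of 0.39 against -0.09 over all genes. Gata2, Gfi1, Irf8 and Ikzf1 had groups that did not overlap, against 24.8% of all genes.

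Ikzf1 measured 257, 245, 263 and 241 CPM with ME induced at P0, all above the wild-type range of 149 to 169 CPM, and its log2 fold change was 0.66 (SE of 0.17, adjusted p = 0.0514 by edgeR). Gata2 measured 231, 240.5, 212 and 205 CPM, above the wild-type range of 121 to 159 CPM, with 0.64 (SE of 0.23, adjusted p = 0.118 by edgeR). Gfi1 (ENSMUSG00000029275, chr5:107716657-107726036, minus strand), a repressor that favours granulocytes over monocytes and holds stem cells at rest, measured 133, 133, 109 and 109 CPM against 77.0, 73.8, 101 and 101 CPM in WT. Its groups were separate, with a log2 fold change of 0.46 (SE of 0.20, adjusted p = 0.198 by edgeR). Myb ran from 305 to 381 CPM (0.38) and Irf8 from 31.8 to 45.4 CPM (0.46). The coefficient of variation between the replicates of this group ran from 2.35% for Spi1 to 17.4% for Irf8, and was 37.9% for Cebpe. The edgeR fit uses 1 estimate of the spread for all 6 groups. When only the 2 groups were fitted, 5 genes were called (Erg, Gata2, Gfi1, Ikzf1 and Myb), limma voom called 4 (Gata2, Gfi1, Ikzf1 and Myb) and DESeq2 called 1 (Ikzf1). The share of all genes called is given above for the main fit alone and does not apply to these other fits. Of the listed partner factors and target genes Mecom alone was called, higher by 1.06, and the median of the 10 stem cell factors was 0.28 against -0.09 over all genes.

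Set directly against each other at P28, induction at P0 and at E10.5 gave no called difference in these 10 genes, while 0.0477% of all genes, 11 in number, were called. No gene of the 10 passed an unadjusted p under 0.05, against 998 of all genes. Gfi1 was the only one with groups that did not overlap (11.8% of all genes), at 109 to 133 CPM after induction at P0 and 85.5, 88.2, 91.4 and 99.7 CPM after induction at E10.5. Its log2 fold change was 0.41 (SE of 0.20, adjusted p = 1 by edgeR), and both limma voom and a fit of only these groups called it higher. The SE of the 10 changes ran from 0.16 for Spi1 to 0.89 for Cebpe. Of the other factors, Gata3 alone was called (2.26), higher after induction at P0.

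**Figure D3:**
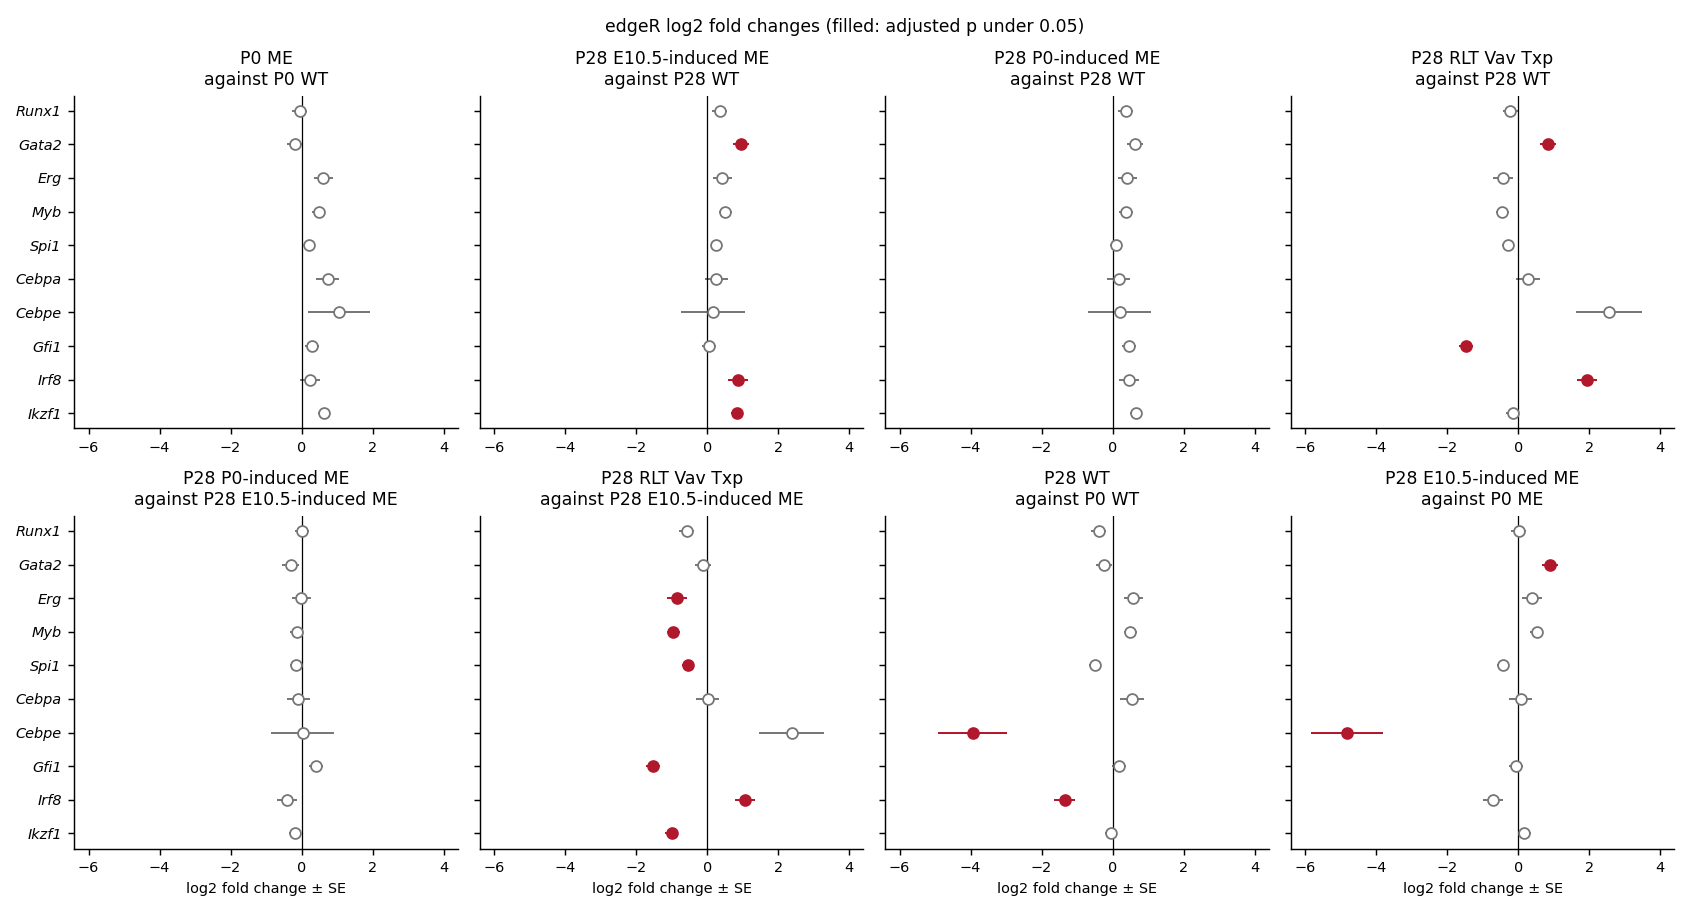
Log2 fold changes with their SE for the 10 genes in 8 comparisons, filled where the edgeR adjusted p was under 0.05. At P28 the ME groups induced at E10.5 and at P0 lie to the right of 0 for all 10 genes against the same 4 wild-type libraries, and the RLT Vav Txp group has calls on both sides.

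In the RLT Vav Txp group at P28, Irf8 and Gata2 were higher and Gfi1 was lower than in wild-type marrow. These 3 of 10 calls stood against 4.12% of all genes, with 2.64% called higher and 1.48% lower. The groups did not overlap for 4 genes, the 3 called ones and Cebpe, against 11.5% of all genes. The fitted changes were positive for 4 genes and negative for 6, with a median of -0.19 against 0.01 over all genes.

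Irf8 measured 152, 60.0, 77.1 and 118 CPM in the 4 RLT Vav Txp libraries, against 17.7 to 30.5 CPM in P28 WT. Every library was above the wild-type range, with a log2 fold change of 1.94 (SE of 0.29, adjusted p = 0.000158 by edgeR), and the call held under each of the 14 alternatives. Macrophage genes moved with it. The 10 macrophage genes summed to 3242, 740.1, 2232 and 1967 CPM in the same 4 libraries and to 76.7 to 111 CPM in WT, and Adgre1, the F4/80 gene, was at 29.6 to 182 CPM against 0.123 to 2.60 CPM. Irf8 and the macrophage sum were both highest in library 1 and both lowest in library 2. The part of these genes' cells in the Irf8 level was not tested.

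Gfi1 measured 42.7, 31.9, 28.1 and 24.2 CPM in the RLT Vav Txp libraries, all below the wild-type range of 73.8 to 101 CPM. The log2 fold change was -1.47 (SE of 0.20, adjusted p = 6.43e-05 by edgeR), and it was called under each of the 14 alternatives. Exons of Gfi1 overlap those of A430072P03Rik on the other strand, and since the strand setting of the counting is not given in the sources used here, reads of the pair cannot be told apart. The 10 stem and progenitor genes summed to 2252 to 3244 CPM in this group and 4641 to 5161 CPM in P28 WT. Among them Flt3 averaged 222 CPM against 1175 CPM in WT (log2 fold change -2.40, adjusted p = 7.23e-05 by edgeR). Hlf averaged 254 against 584 CPM, and Mecom 143 against 105 CPM. The part of the difference between these sums in the Gfi1 level was not tested.

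Gata2 measured 255, 298, 251 and 220.4 CPM in these libraries, above the wild-type range of 121 to 159 CPM, with a log2 fold change of 0.84 (SE of 0.23, adjusted p = 0.0326 by edgeR). Leaving out 1 library ended the call in 7 of 8 fits, with adjusted p up to 0.105, as did plain library totals. The mast cell and basophil sum was 973 to 1654 CPM, overlapping with 927 to 1177 CPM in WT. The megakaryocyte sum of 10 genes, 585 to 958 CPM against 445 to 620.0 CPM, overlapped too, while the erythroid sum was higher in every library, at 1683 to 2766 CPM against 546 to 720.0 CPM, and their part in the Gata2 level was not tested. Cebpe (ENSMUSG00000052435, chr14:54710360-54712174, minus strand), a factor of late granulocyte maturation, measured 7.95, 8.14, 8.78 and 23.4 CPM against 0.951, 1.79, 1.46 and 3.97 CPM in WT. Its groups did not overlap but its log2 fold change was 2.55 (SE of 0.93, adjusted p = 0.154 by edgeR), while DESeq2 (adjusted p = 0.0411) and an edgeR fit of only these groups (adjusted p = 0.00733) called it higher. Library 4 held both the highest Cebpe level and the highest neutrophil sum of the group (6093 CPM, against 1829.8 to 2582 CPM in the other 3).

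Against the P28 group that shares its time of induction at E10.5, the RLT Vav Txp group differed in more of these genes. A total of 6 of the 10 were called, 1 higher and 5 lower, where 17.9% of all genes were called (8.5% higher and 9.38% lower). The median of the 10 changes was -0.56, against 0.12 over all genes, and 5 genes had groups that did not overlap, against 25.7% of all genes. Both comparisons use the same 4 RLT Vav Txp libraries, so their values stand side by side and do not support each other.

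Gfi1 fell to 31.7 ± 8.00 CPM from 91.2 ± 6.16 CPM (SD, n = 4 each), a log2 fold change of -1.52 (SE of 0.20, adjusted p = 2.77e-05 by edgeR). Ikzf1 measured 203, 118, 95.0 and 158 CPM, all below the 259 to 311 CPM of the ME libraries, and the means were 143 ± 47.3 and 287 ± 23.6 CPM (SD, n = 4 each; adjusted p = 0.000477 by edgeR). Myb measured 254, 179, 154 and 219.5 CPM, all below 353 to 414 CPM, with -0.96 (SE of 0.19, adjusted p = 0.00136 by edgeR). These 3 genes were called under each of the 14 alternatives, as was Irf8, which was higher by 1.06 (SE of 0.28, adjusted p = 0.0119 by edgeR) although its RLT Vav Txp library 2 (60.0 CPM) lay inside the ME range of 40.0 to 66.4 CPM.

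Erg measured 47.3, 32.8, 22.9 and 33.9 CPM in the RLT Vav Txp libraries and 92.0, 57.5, 45.9 and 51.1 CPM in the ME libraries, with -0.85 (SE of 0.27, adjusted p = 0.0309 by edgeR). The groups overlapped, and leaving out 1 library ended the call in 5 of 8 fits, with adjusted p up to 0.148. Spi1 (ENSMUSG00000002111, chr2:91082390-91115756, plus strand), the PU.1 gene, measured 222, 134, 161 and 160.5 CPM and 236, 219, 284 and 253 CPM, with -0.55 (SE of 0.16, adjusted p = 0.0222 by edgeR), and leaving out 1 library ended that call in 4 of 8 fits. Runx1 had separate groups, 61.5 to 90.8 CPM against 97.3 to 129 CPM, and missed the threshold with -0.58 (SE of 0.21, adjusted p = 0.0539 by edgeR). Its exons overlap those of Gm26626 on the other strand, as those of Myb overlap Gm26577 and those of Cebpa overlap Gm45091.

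In the same group, listed myeloid factors that rose against P28 WT included Maf (3.37), a factor of macrophages, Irf4 (3.26), the closest relative of Irf8, and Id2 (1.67). Of the 10 stem cell factors Gfi1b rose (1.14) and Hlf fell (-1.20). Against ME induced at E10.5, 4 of the 10 stem cell factors fell, the largest falls being those of Hlf (-1.09), Mecom (-1.06) and Etv6 (-0.87), and Tal1 rose (0.86). Among the 15 target genes of the granulocyte and monocyte factors, Csf1r (4.02) and Lyz2 (2.51) rose against P28 WT and none fell, with a list median of 2.58 against 0.01 over all genes. Csf1r, the receptor for the macrophage growth factor, is also on the macrophage list, whose sum is given above. Of 8 erythroid and megakaryocyte factors Gata1 (2.75) and Gfi1b rose against P28 WT. Of 14 lymphoid factors 1 rose and 2 fell against P28 WT, and 4 rose and 3 fell against ME induced at E10.5. Of 10 lymphoid target genes 1 rose and 1 fell against P28 WT. Against ME induced at E10.5, 4 of these targets rose, Igll1 (3.75) and Cd79a (3.27) among them, and 3 fell.

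In newborn liver none of the 10 genes was called between ME and WT, where 0.642% of all genes were called. The edgeR test passed 4 of the 10 at an unadjusted p under 0.05 (Ikzf1, Myb, Erg and Cebpa), as it did 3251 of all genes. Ikzf1 was the only 1 of the 10 with groups that did not overlap, against 3.74% of all genes. It measured 195, 179.7, 154 and 130.4 CPM in P0 WT and 305, 228, 254 and 226 CPM in P0 ME, a log2 fold change of 0.62 (SE of 0.17, adjusted p = 0.0996 by edgeR), and DESeq2 called it higher. Library 1 was the highest of each group. Cebpa (ENSMUSG00000034957, chr7:35119293-35121928, plus strand), the gene for the factor that opens the granulocyte and monocyte path, measured 9.84, 6.50, 11.1 and 14.9 CPM in P0 WT and 9.79, 20.7, 15.9 and 23.9 CPM in P0 ME, with 0.73 (SE of 0.33, adjusted p = 0.311 by edgeR). In libraries 2 to 4 the neutrophil sum was 10837 to 17805 CPM in P0 WT and 18508 to 37691 CPM in P0 ME. The mast cell and basophil sum was 1903 to 11751 CPM in the 4 P0 WT libraries and 628 to 1758 CPM in P0 ME. Macrophage sums of libraries 2 to 4 overlapped, at 1593.5 to 1636 CPM and 1409 to 2020 CPM. The part of these cells in the levels given here was not tested. Mecom rose (1.62), the only 1 of the 10 listed stem cell factors to do so. Itgam, the CD11b gene and 1 of the 15 granulocyte and monocyte targets, rose (1.48), and Gata3 fell (-2.01). Without both libraries numbered 1, none of these 15 targets was called. In that fit 1 of the 10 stem cell factors was still called higher and 1 of 14 lymphoid factors lower.

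Between newborn liver and marrow at P28, Cebpe and Irf8 fell in wild-type cells and were the 2 called genes of the 10, against 7.68% of all genes (4.56% lower). In cells with ME induced at E10.5, Cebpe fell and Gata2 rose, 2 of the 10 against 18.2% of all genes (9.79% higher and 8.45% lower). Irf8 was the only gene with groups that did not overlap in WT (9.27% of all genes), and Gata2 and Myb were those in ME (25.4%). The WT and ME comparisons hold different libraries.

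Cebpe measured 0.905, 50.2, 41.0 and 34.5 CPM in P0 WT and 0.951, 1.79, 1.46 and 3.97 CPM in P28 WT. In P0 ME it measured 1.65, 109, 68.3 and 82.2 CPM, against 1.41, 1.93, 2.66 and 3.25 CPM at P28. In both P0 groups libraries 2 to 4 were far above every P28 library outside the RLT Vav Txp group. The highest RLT Vav Txp library, at 23.4 CPM, was closer to them but still below. Library 1 was near the P28 libraries outside that group. It was the lowest of all 24 libraries in P0 WT and inside the P28 WT range in P0 ME. The log2 fold change was -3.94 (SE of 0.98, adjusted p = 0.017 by edgeR) in WT and -4.82 (SE of 1.02, adjusted p = 0.00294 by edgeR) in ME. The call in WT did not hold with limma voom (adjusted p = 0.284). It also did not hold without P28 WT library 1, 2 or 3 (edgeR adjusted p of 0.0669, 0.06 and 0.0613). Without both P0 libraries numbered 1, a setting chosen after seeing the data, the falls were -4.35 (edgeR adjusted p = 5.58e-07) and -5.22 (edgeR adjusted p = 3.42e-08). With only those libraries for P0, 1 in each group, the changes were positive, 1.25 in WT and 0.55 in ME. The neutrophil sum followed the same split and the stem and progenitor sum the opposite one, as given above, and their part in the Cebpe difference was not tested.

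**Figure D4:**
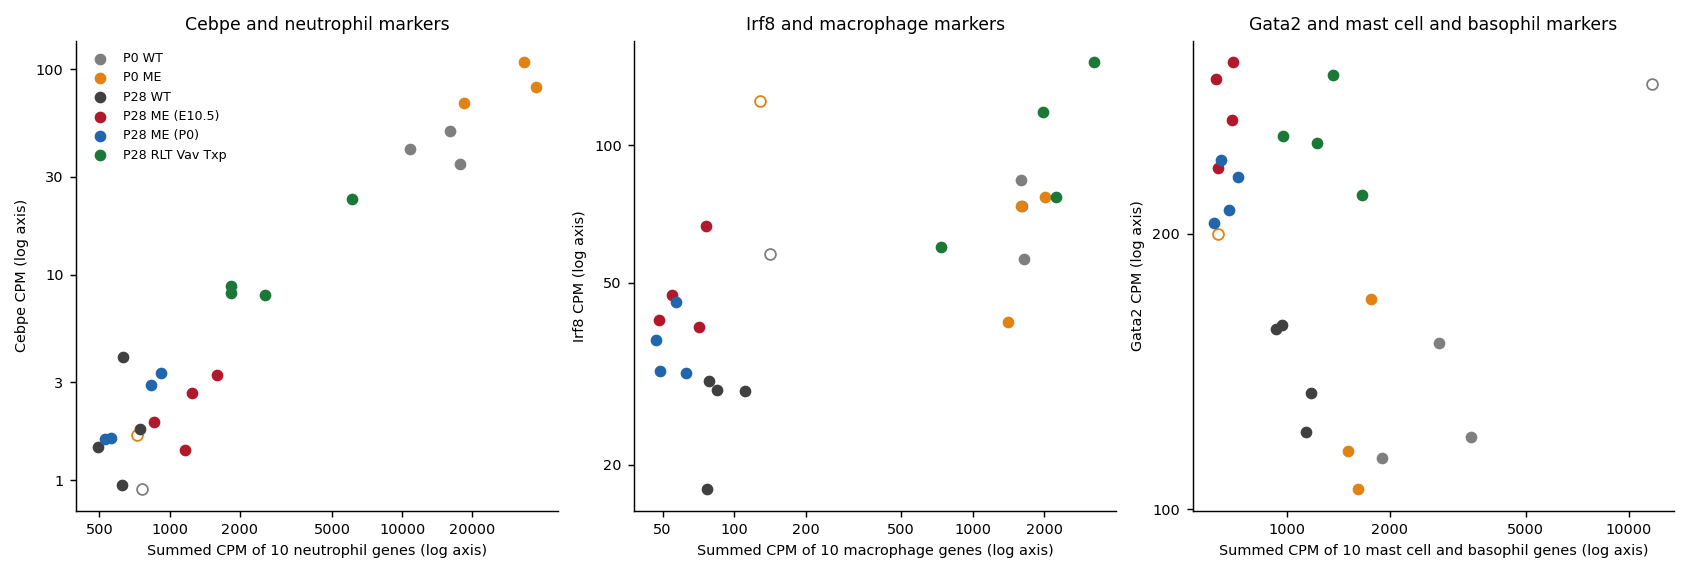
Cebpe, Irf8 and Gata2 in CPM against the summed CPM of 10 neutrophil, macrophage, or mast cell and basophil genes in each of the 24 libraries (both axes logarithmic, colours by group, open circles for the P0 libraries numbered 1). Both open circles lie near the P28 libraries in the Cebpe plot, and the P0 WT open circle has the highest mast cell and basophil sum.

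Irf8 measured 57.8, 83.7, 73.6 and 56.3 CPM in P0 WT against 17.7 to 30.5 CPM in P28 WT, with every newborn library above every P28 library and a log2 fold change of -1.35 (SE of 0.29, adjusted p = 0.00392 by edgeR). The fall was -1.42 (edgeR adjusted p = 0.00114) without both libraries numbered 1, and -1.06 with only library 1 for P0 WT (n = 1). The 10 macrophage genes summed to 1593.5 to 1636 CPM in P0 WT libraries 2 to 4 and 141 CPM in library 1, against 76.7 to 111 CPM in P28 WT, and their part in the Irf8 difference was not tested. In P0 ME it measured 125, 77.0, 73.6 and 41.1 CPM, a spread that overlapped with that of the P28 ME libraries (40.0 to 66.4 CPM), and the log2 fold change was -0.70 (SE of 0.28, adjusted p = 0.0836 by edgeR). Here library 1 held the highest Irf8 level with a macrophage sum of only 129 CPM, against 1409 to 2020.3 CPM in the other 3.

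Gata2 measured 292, 114, 152 and 119.9 CPM in P0 WT and 199.8, 105, 169.6 and 116 CPM in P0 ME. In both groups library 1 was the highest, and in P0 WT that library also had a mast cell and basophil sum of 11751 CPM, against 1903 to 3450.4 CPM in the other 3. The rise from P0 to P28 in ME was 0.90 (SE of 0.23, adjusted p = 0.00741 by edgeR), and 1.09 (edgeR adjusted p = 6.41e-05) without both libraries numbered 1. In WT the change was -0.24 (SE of 0.23, adjusted p = 0.595 by edgeR), and -0.97 with only library 1 for P0 WT (n = 1).

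Whether ME acted on a gene differently at P28 and at P0 was tested as an interaction, and none of the 10 genes was called, against 0.72% of all genes. The edgeR test passed 1 of the 10 at an unadjusted p under 0.05, as it did 3815 of all genes. That gene was Gata2, with a difference of 1.15 (SE of 0.32, adjusted p = 0.0794 by edgeR). It was called with DESeq2, with a term for the P0 libraries numbered 1 (1.07, edgeR adjusted p = 0.0198) and without P0 WT library 4. It was not called without both libraries numbered 1 (0.94, edgeR adjusted p = 0.0503). For Ikzf1 the difference was 0.23 (SE of 0.25, adjusted p = 0.695 by edgeR), with ME above WT at both ages.

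Myb and Spi1 stood near the threshold between P0 liver and P28 marrow. Myb measured 284, 195, 153 and 149 CPM in P0 WT and 350.1, 253, 256 and 229 CPM in P0 ME, and its change to P28, not called, was 0.49 (SE of 0.19, adjusted p = 0.112 by edgeR) in WT and 0.53 (SE of 0.19, adjusted p = 0.0505 by edgeR) in ME. Spi1 measured 228, 262, 310.1 and 374 CPM in P0 WT and 309, 393, 279 and 360.2 CPM in P0 ME, with changes of -0.51 (SE of 0.16, adjusted p = 0.0578 by edgeR) and -0.44 (SE of 0.16, adjusted p = 0.0644 by edgeR). Without both libraries numbered 1, these 2 genes were called in WT and in ME, which brought the count of called genes to 4 in each. Runx1 ran from 70.6 to 149 CPM in P0 WT and 72.1 to 145 CPM in P0 ME and Erg from 13.1 to 40.2 and 38.3 to 59.7 CPM, wide ranges that overlapped with those of the P28 groups.

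Of the 10 listed myeloid factors 6 fell from P0 liver to P28 marrow in WT and 6 in ME, and none rose. Id2 (-3.25 and -2.99) and Irf4 (-2.95 and -2.99) were among those that fell. Of the 15 granulocyte and monocyte target genes 9 fell in WT and 14 in ME, led by Lcn2 (-6.90) in WT and S100a9 (-7.01) in ME, and 1 rose in each. The medians were -3.78 and -3.77 for these targets and -2.02 and -1.93 for the myeloid factors, against -0.07 and -0.18 over all genes. Without both libraries numbered 1 these falls numbered 12 and 14, and those of the myeloid factors 7 and 6. Several of these targets are on the neutrophil list. The falls were not limited to the myeloid lists. Of 14 lymphoid factors 5 fell in WT and 7 in ME, and none rose, with medians of -0.49 and -1.11. Of 10 lymphoid target genes 6 fell in WT and 7 in ME, with medians of -1.89 and -2.65. Dntt was the only 1 of them to rise, by 7.42 in WT and 10.53 in ME. With both libraries numbered 1 left out, 5 and 6 of the lymphoid factors fell. Of their targets 7 and 8 then fell, and 2 rose in each. Of the 10 stem cell factors Lmo2 (1.15) and Hlf (0.93) rose in WT, and Cbfb (1.25), the partner of RUNX1, Etv6 (1.17) and Lmo2 (0.85) rose in ME, with none falling in either.

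Ordered by mean level over the 6 groups, most neighbouring groups overlapped. The exceptions were Cebpe, where the RLT Vav Txp group came after the 2 P0 groups and was separate from the P28 groups below it, and Gfi1, where induction at P0 stood apart at the top and the RLT Vav Txp group at the bottom. For Gfi1 the gap at the top was narrow, from 108.7 CPM to 107.1 CPM in P0 ME. At the bottom it ran from 47.6 CPM in P0 WT to 42.7 CPM. For Ikzf1 the 3 groups of ME other than RLT Vav Txp, at 287 ± 23.6 CPM for induction at E10.5, 253 ± 36.8 CPM for P0 ME and 251 ± 10.2 CPM for induction at P0 (SD, n = 4 each), stood apart from P0 WT (165 ± 28.5 CPM), P28 WT (159 ± 9.94 CPM) and RLT Vav Txp (143 ± 47.3 CPM). For Irf8 the lowest group, P28 WT, was separate from the next one. Runx1, Gata2, Erg, Myb, Spi1 and Cebpa had no gap between neighbours in the order.

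Across the 24 libraries, log2 CPM of Ikzf1 followed that of Myb most closely among pairs of the 10 genes (Pearson r = 0.83), then Myb followed Erg (r = 0.79), and the lowest value was that of Cebpe with Myb (r = -0.61). Among 9656 other expressed genes, the nearest to Cebpe were Hp (Pearson r = 0.97, Spearman rho = 0.90), haptoglobin of neutrophil granules, and Prtn3 (r = 0.96, rho = 0.88), proteinase 3 of the same cells. Ikzf1 was nearest to Suz12 (r = 0.92, rho = 0.88), a Polycomb subunit, and Ppp3ca (r = 0.91), and Myb to the ETS factor Elf1 (r = 0.93, rho = 0.95) and Map2k5 (r = 0.92). Irf8 was nearest to Pld4 (r = 0.84, rho = 0.87), Gata2 to Lonp2 (r = 0.88, rho = 0.90), Spi1 to Lgals9 (r = 0.89, rho = 0.90) and Runx1 to the DNA methyltransferase gene Dnmt3b (r = 0.88, rho = 0.85). Gfi1 was nearest to Peg13 (r = 0.92, rho = 0.68), Erg to Tmem39b (r = 0.90, rho = 0.81) and Cebpa to Scamp2 (r = 0.76, rho = 0.69). These are descriptions over libraries that share groups and depth, with no test.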

How the data were processed

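Per the labels' protocols, a Qiagen RNeasy Plus kit gave the RNA, and libraries were made with a Clontech kit named there as SMRTr. The authors deposited 1 table of raw read counts per Ensembl gene with 24 count columns, each matched to a sample by its title. The submitters' processing notes name STAR 2.7.9a, Subread, featureCounts 2.0.3 and GRCm38; the strand setting and the handling of reads with several matches are not given in the sources used here. Of 55774 entries, 287 repeats of 168 identifiers with identical counts were dropped. Positions and merged exon lengths come from GENCODE M21.

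The edgeR function filterByExpr (minimum count 10) kept 23059 genes. TMM scaling and a robust quasi-likelihood fit of all 24 libraries, 1 mean per group, left 18 residual degrees of freedom for 9 comparisons, with Benjamini-Hochberg adjustment over all genes. Log2 CPM used a prior count of 2. The genes and lists were chosen with earlier results of these data known. Named were the 10 genes, at most 4 called genes per list and comparison (largest changes first), and the genes with the highest Pearson r to each of the 10, up to 2 each, where the mean log2 CPM reached 3. Alternatives were other scalings, DESeq2, limma voom, no filter, fits of fewer groups, a replicate block, leaving out each library, and 3 settings for the P0 libraries numbered 1 that were chosen after seeing the data. The procedure was tested on simulated data for ME induced at E10.5 against WT at P28, where 18 of 67 genes changed 2-fold, 47 of 67 changed 4-fold and 55 of 66 changed 8-fold were called, with 3 of 22282 unchanged genes. Figures were drawn with matplotlib 3.10.9 under Python 3.11.15, and tests were run under R 4.3.3 with DESeq2 1.42.0, limma 3.58.1 and edgeR 4.0.16. The result of 1 listed factor is not reported here.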

Additional observations from a re-analysis of the deposited data

Results flagged for a closer look

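Each of the 10 genes in each of the 6 groups was checked for a library set apart from the other 3 by Dixon's test at its 95% critical value for 4 samples. Of these 60 sets 5 held such a library, and chance alone gives about 1 in 20. Runx1 measured 103 CPM in P28 WT library 4, against 75.5 to 79.3 CPM in the other 3. Myb measured 331 CPM in the same library, against 248 to 261 CPM. Irf8 measured 17.7 CPM in P28 WT library 2, against 29.1 to 30.5 CPM. Myb measured 305 CPM in library 4 of the P28 group with ME induced at P0, against 369 to 381 CPM. Cebpe measured 23.4 CPM in RLT Vav Txp library 4, against 7.95 to 8.78 CPM. The split of the P0 groups by their library 1 did not reach this value for any of the 10 genes.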

How the results depend on the processing

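Of 1580 values of the 10 genes under the alternatives, 1482 kept their side of the threshold, 58 passed it newly, 38 no longer passed it and 2 were called values whose sign turned. Those 2 were Cebpe at P28 against P0 with only the P0 libraries numbered 1, at 1.25 in WT and 0.55 in ME. In all 89 values changed sign, the others being uncalled. The number of the 10 genes called is given next as it moved. The share of all genes called also differed between settings and is not given beside these counts. Fits with only the P0 libraries numbered 1 are left out, as they hold 1 library per P0 group. For P0 ME against P0 WT it went from 0 to 1 (Ikzf1) with DESeq2 and in the fits of the 20 numbered libraries with and without the replicate block. For ME induced at E10.5 against P28 WT it went from 3 to 2 (without Irf8) with size factors, plain totals or no filter, and to 4 (with Myb) with limma voom and only the groups compared. For ME induced at P0 against P28 WT it went from 0 to 1 with DESeq2, 4 with limma voom, 5 with only the groups compared, and 1 with and without the replicate block. For induction at P0 against E10.5 it went from 0 to 1 (Gfi1) with limma voom and with only the groups compared. For RLT Vav Txp against P28 WT it went from 3 to 4 with DESeq2 and with only the groups compared (Cebpe), 4 with limma voom (Myb) and 2 with plain totals. For RLT Vav Txp against ME induced at E10.5 it went from 6 to 7 with DESeq2 (Cebpe), 7 with limma voom (Runx1), 8 with only the groups compared (both) and 4 with no filter on low counts. For P28 WT against P0 WT it went from 2 to 1 with limma voom, 3 (Spi1) with DESeq2 and in the fits of the 20 numbered libraries with and without the replicate block, and 4 without both P0 libraries numbered 1. For ME at P28 against P0 it went from 2 to 3 (with Spi1) with size factors and plain totals, and to 4 with DESeq2, limma voom, only the groups compared, the replicate block, the same libraries with no block, and without both P0 libraries numbered 1. For the interaction it went from 0 to 1 (Gata2) with DESeq2 and with a term for the P0 libraries numbered 1. Leaving out 1 library gave 0 to 1 for P0 ME against WT, 1 to 3 for ME induced at E10.5 against WT (1 without WT library 1 or 2), 1 to 4 for WT at P28 against P0 (4 without P0 WT library 1, 1 without P28 WT library 1, 2 or 3), 2 to 3 for ME at P28 against P0 and for RLT Vav Txp against WT, 4 to 7 for RLT Vav Txp against ME induced at E10.5 and 0 to 1 for the interaction. The cause of these moves was not tested. The block gave the same counts as the same 20 libraries without it. The numbers were not taken to pair the samples: the correlation of deviations over 40 same-number pairs ran from -0.394 to 0.660 with a median of 0.030, and 7 of 20 libraries correlated best with their own number. Between P0 WT and P0 ME it was 0.660, 0.053, 0.371 and 0.464, where both libraries numbered 1 stood apart. Plain library totals moved the median of all genes by -0.13 for ME induced at E10.5 against WT and 0.15 for P28 WT against P0 WT. They moved it by 0.11 for induction at P0 against E10.5 and by -0.20 for the interaction. The share of all calls that were higher also moved from TMM scaling to plain totals. It went from 56.8% to 67.2% for P0 ME against WT and from 31.5% to 14.4% for ME induced at P0 (13.8% with size factors). For RLT Vav Txp against WT it went from 64.0% to 53.3%. For P28 WT against P0 WT it went from 40.6% to 56.8%, and for the interaction from 65.1% to 11.0%. Depth bears most on Cebpe, whose lowest count was 34, and 4 libraries a group limit the precision.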
